A study of Mus musculus with 6 samples.

Results

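The genes described are 10 genes of iron storage, iron uptake and heme handling, namely Fth1, Ftl1, Ncoa4, Hmox1, Slc40a1, Tfrc, Steap3, Steap4, Slc11a1 and Slc11a2. They were taken by symbol from a table of 26529 genes, and all 10 were found there. RNA had been sequenced from cultures of wild-type C57BL/6 mouse bone marrow, from animals aged 8 weeks, kept with 20 ng/ml of M-CSF, the growth factor of macrophages, and 10 ng/ml of RANKL, which turns such cells into osteoclasts. By the labels, the 3 OC libraries (osteoclasts) came from day 6 of culture and the 3 OCP libraries (osteoclast precursors) from day 3. Both groups then carry the same genotype and the same cytokines and differ by time. Cell type markers, given below, go against these names. No label says that the replicates were separate mice or cultures, so the spread between them may be technical.

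Most iron in a cell is held in ferritin, a shell of heavy and light chains. It enters with transferrin through the transferrin receptor, is reduced by STEAP enzymes and crosses the endosomal membrane through a divalent metal transporter, and it leaves through ferroportin. Heme oxygenase frees further iron from heme. Iron regulatory proteins bind hairpins, called iron-responsive elements, in the untranslated regions (UTRs) of several of these mRNAs: at the 5′ end they block translation and at the 3′ end they protect the mRNA. Osteoclasts are rich in mitochondria, and iron taken up with transferrin is known to serve their formation.

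The hairpins are shown because they mark which of these mRNAs carry a known iron sensor and at which end. GENCODE M21 transcripts (GRCm38) were searched on the mRNA strand only for a C, any 5 bases, CAGTG and any 1 base, with the 5 bases after this loop pairing with the 5 before it (G-T pairs allowed). In the lines below, capitals mark the bulged C and the 6-base loop, and each sequence runs 5′ to 3′ along the mRNA.
Fth1, 5′ UTR, chr19:9982732-9982760, plus strand: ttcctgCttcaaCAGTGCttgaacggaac
Ftl1, 5′ UTR, chr7:45459779-45459807, minus strand: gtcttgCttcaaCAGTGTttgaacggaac
Slc40a1, 5′ UTR, chr1:45925465-45925493, minus strand: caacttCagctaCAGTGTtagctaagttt
Tfrc, 3′ UTR, chr16:32631219-32631247, plus strand: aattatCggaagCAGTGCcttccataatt
Tfrc, 3′ UTR, chr16:32631598-32631626, plus strand: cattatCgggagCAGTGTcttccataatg
Tfrc, 3′ UTR, chr16:32631663-32631691, plus strand: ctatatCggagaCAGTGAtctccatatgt
Tfrc, 3′ UTR, chr16:32631710-32631738, plus strand: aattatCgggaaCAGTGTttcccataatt
Slc11a2, 3′ UTR, chr15:100395152-100395181, minus strand: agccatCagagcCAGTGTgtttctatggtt

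Fully paired matches lay in the UTRs of 4 of the 10 genes, against 0.731% of 21900 protein-coding genes searched. Slc11a2 matched only when 1 unpaired base was allowed in the second arm, a pattern held by 2.00% of those genes. Its match was in 1 transcript form, and the table counts all forms of the gene together. The ferritin hairpins of Fth1 and Ftl1 were the same at 26 of 29 positions. No match was found in Hmox1, Ncoa4, Slc11a1, Steap3 or Steap4. A match is a sequence feature, and nothing here measures binding or protein.

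Values are RPKM, reads scaled by exon length in kilobases and by the library's total of assigned reads, and for that reason can be compared between genes. The libraries held 33219178 to 42121216 reads assigned to genes. The 9 genes that passed the filter on low values had between 331 and 391518 reads in a library. All 10 osteoclast markers listed were tested and all 10 were lower in OC, with sums of 2730 to 2815 RPKM in OC libraries and 5104 to 5261 RPKM in OCP libraries. Macrophage markers were higher in 7 of 9 tested cases and lower in 2. The osteoclast markers and most of the macrophage markers thus go against the names of the groups. Ctsk, for example, averaged 1711 RPKM in OC and 3249 RPKM in OCP. Whether labels were exchanged was not tested. The groups are therefore called by their labels, and a rise or fall below means only higher or lower in OC. Of 10 erythroid markers in the table, 9 stayed under 1 RPKM in every library, the globins among them. Neutrophil markers were higher in OC in 4 of 4 tested cases, with sums of 56.6 to 63.1 RPKM in OC and 40.0 to 44.6 RPKM in OCP, and their part in the results below was not tested. Stromal and endothelial markers summed to 4.45 to 4.92 RPKM in OC and 4.72 to 5.02 RPKM in OCP, and lymphocyte markers to at most 0.214 RPKM. In such bulk RNA, fewer cells of a type and less RNA per cell cannot be told apart.

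The 10 genes were selected on their RPKM in these same OC and OCP libraries, with the difference between the groups already known. Their differences are therefore given as a description, with the standard error (SE) but with no p-value. Differences are on the log2(RPKM + 1) scale, OC minus OCP, on which differences of weakly expressed genes come out too small. In the limma fit across all 12301 tested genes, 55.6% passed an adjusted p of 0.05, 23.5% as higher in OC and 32.1% as lower. Of the 9 tested members 4 were past the threshold as higher and 5 as lower, and nothing is read from this, since that contrast chose them. The same 4 and 5 members had OC libraries that all lay above or all lay below the OCP libraries, as did 62.7% of all tested genes, 26.7% above and 36.0% below. The median log2 fold change was -0.19 over these 9 genes and -0.05 over all genes tested.

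Both ferritin chains and Hmox1 were higher in OC. Fth1, the ferritin heavy chain that oxidises iron on its way into the shell (chromosome 19, 9982703 to 9985092), had 12287, 11850 and 11862 RPKM in OC libraries, against 6831, 6597 and 6479 RPKM in OCP libraries. All OC libraries lay above all OCP libraries, with means of 12000 ± 249 RPKM in OC and 6636 ± 179 RPKM in OCP (SD, n = 3). The ratio of means was 1.81 and the log2 fold change 0.85 (SE 0.04). By RPKM Fth1 ranked 1 of all genes in each OC library and 4 in each OCP library.

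Ftl1, the ferritin light chain that aids the growth of the iron core (chromosome 7, 45457944 to 45459884), had 628, 640 and 597 RPKM in OC, against 474, 498 and 494 RPKM in OCP. The groups did not overlap, and the ratio of means was smaller than that of Fth1, at 1.27 (log2 fold change 0.35, SE 0.04). Inside each library the ratio of Fth1 to Ftl1 was 19.3 ± 0.714 in OC and 13.6 ± 0.715 in OCP (SD, n = 3), and it was higher in every OC library. This ratio rests on reads as assigned, and those of Ftl1 carry the limit given in the next paragraph. Together both chains took 1.12% ± 0.0224 of all assigned reads in OC and 0.64% ± 0.014 in OCP.

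Near-identical copies could share reads with the ferritin genes, and shared reads were not measured. Of the genes in the table, 18 rows matched Ftl1 at 85% identity or more over at least 50% of their length, small RNA annotations included. By the same rule 2 matched Fth1, namely Fth-ps3 and Gm6977. Among the 18 is Gm22133, which lies inside the exons of Ftl1 itself and is no separate copy. Ftl1-ps1, 99.6% identical to Ftl1 over the aligned bases and carrying the same hairpin at 29 of 29 positions, had 49.95 ± 2.21 RPKM in OC and 36.98 ± 2.01 RPKM in OCP. Among other ferritin copies, Ftl2-ps averaged 12.02 RPKM in OC and 8.39 RPKM in OCP, and Ftl1-ps2 had 0.654 to 1.04 RPKM in OC and 0.688 to 0.913 RPKM in OCP. Gm6977, 90.5% identical to Fth1 over the aligned bases, averaged 7.95 RPKM in OC and 4.33 RPKM in OCP. Fth-ps3 averaged 2.05 RPKM in OC and 1.14 RPKM in OCP. Fth-ps2, taken by its symbol and not among the matches, had 0.933 to 1.53 RPKM in OC and 0.195 to 0.633 RPKM in OCP. Ftl1 also shares 355 exon bases with Gm10252 on the opposite strand and 109 with Gm22133, so its reads cannot be assigned to 1 gene with certainty. Gm22133 averaged 1340 RPKM in OC and 1056 RPKM in OCP, so reads in its exons were not kept to Ftl1 alone. Gm10252 averaged 586 RPKM in OC and 464 RPKM in OCP, near the levels of Ftl1 although on the opposite strand. The copies of Fth1 were at levels far below that gene.

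Ncoa4, the receptor that carries ferritin to the lysosome for breakdown (chromosome 14, 32159865 to 32179855), went the other way. It had 20.99, 19.38 and 21.95 RPKM in OC, against 30.5, 25.9 and 28.3 RPKM in OCP. Every OC library was below every OCP library, and the log2 fold change was -0.42 (SE 0.07).

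Hmox1, the inducible heme oxygenase (chromosome 8, 75093621 to 75100589), had the largest log2 fold change of the 9 tested members in size. Its levels were 680, 667 and 629 RPKM in OC, against 321, 344 and 330 RPKM in OCP. The groups lay far apart, with means of 659 ± 26.3 RPKM in OC and 332 ± 11.4 RPKM in OCP (SD, n = 3), a ratio of 1.99 and a log2 fold change of 0.99 (SE 0.05). Of all tested genes, 95.7% had a smaller absolute difference, where this share was 40.5% for Slc11a1 and 42.7% for Slc11a2. Nothing is read from these shares, since this contrast chose the members. Hmox2, the constitutive heme oxygenase, fell to 108 ± 1.04 RPKM in OC, against 136 ± 2.66 RPKM in OCP (log2 fold change -0.33, limma adjusted p = 2.0e-04). The ratio of Hmox1 to Hmox2 was 6.11 ± 0.297 in OC libraries and 2.44 ± 0.089 in OCP libraries.

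**Figure D1:**
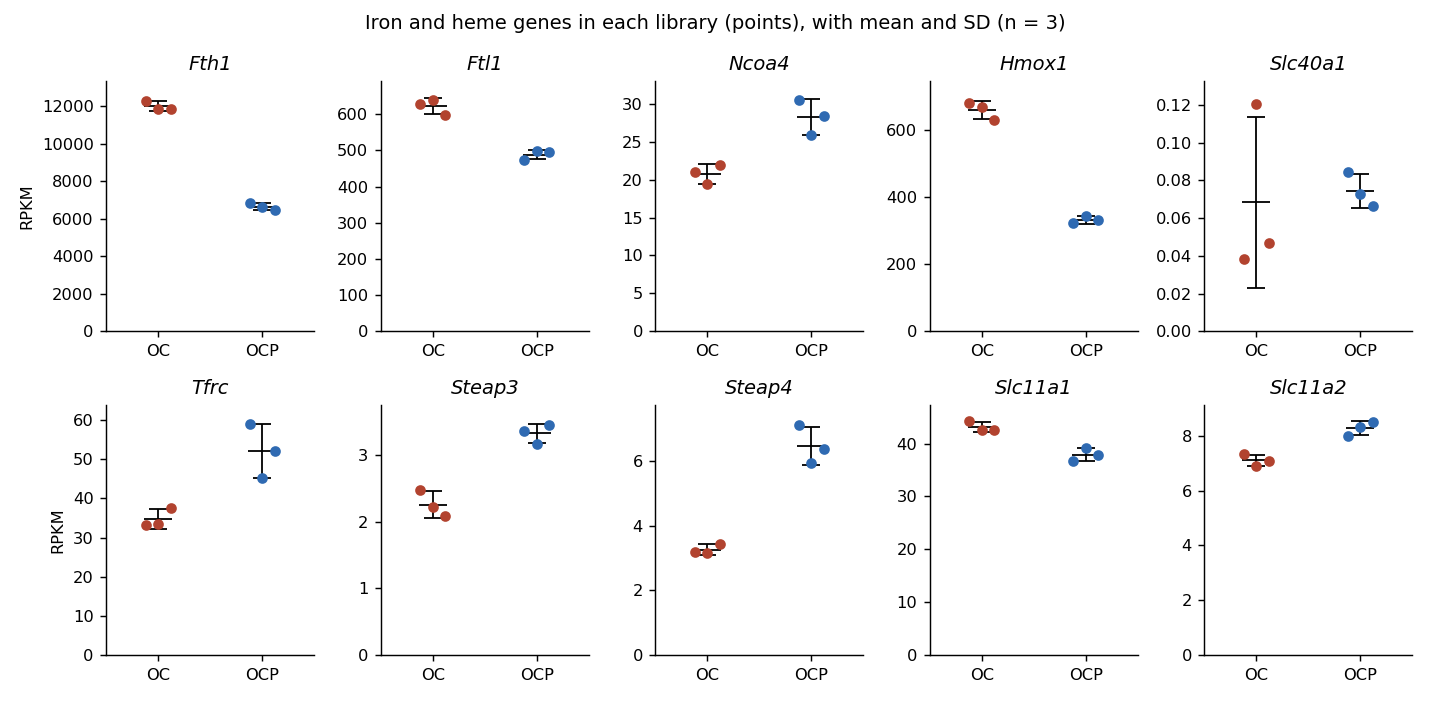
RPKM of the 10 iron and heme genes in each library (points), with the mean and SD of the 3 OC libraries (left) and the 3 OCP libraries (right); each panel has its own linear axis from 0. Fth1, Ftl1, Hmox1 and Slc11a1 were higher in all OC libraries, Ncoa4, Tfrc, Steap3, Steap4 and Slc11a2 were lower in all OC libraries, and Slc40a1 overlapped.

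Slc40a1, which encodes ferroportin, the known exporter of cellular iron (chromosome 1, 45908068 to 45926523), was near the limit of detection in both groups. It had 12, 36 and 16 reads in OC libraries, against 32, 26 and 22 reads in OCP libraries, over an exon length of 9000 bases. These are 0.0381, 0.120 and 0.0466 RPKM in OC and 0.0844, 0.0728 and 0.0665 RPKM in OCP, where 3 reads are worth 0.0079 to 0.010 RPKM. The groups overlapped, with OC replicate 2 above and the other OC libraries below all OCP libraries. The gene failed the filter, and a difference between the groups was not detectable at this depth.

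Of the members that act in iron uptake, Tfrc, Steap3 and Steap4 were lower in OC. Tfrc, the transferrin receptor (chromosome 16, 32608920 to 32632794), had 33.3, 33.4 and 37.7 RPKM in OC, against 59.0, 45.4 and 52.1 RPKM in OCP. The groups did not overlap, though the OCP libraries spread more than for any other tested member, with a coefficient of variation of 13.1%, against 7.20% in OC. The ratio of means was 0.667 and the log2 fold change -0.57 (SE 0.10).

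Steap3, the ferrireductase of the erythroid transferrin cycle (chromosome 1, 120190757 to 120272705), had 2.47, 2.22 and 2.08 RPKM in OC, against 3.37, 3.17 and 3.45 RPKM in OCP (log2 fold change -0.41, SE 0.07). Steap4, a metalloreductase of iron and copper (chromosome 5, 7960457 to 7982213), had 3.19, 3.16 and 3.45 RPKM in OC, against 7.12, 5.95 and 6.39 RPKM in OCP. Both reductases were lower in every OC library. Steap4 had the lowest ratio of means among the 9 genes, at 0.503, and a log2 fold change of -0.81 (SE 0.07). As a ratio of means, OCP over OC, this is 1.99, about the size of that of Hmox1 in the other direction. The ratio of Steap4 to Steap3 was 1.46 ± 0.186 in OC and 1.95 ± 0.143 in OCP. At these low levels the scale matters, and with a pseudocount of 0.1 the log2 fold change was -0.54 for Steap3 and -0.97 for Steap4.

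Of the metal transporters of the NRAMP family, Slc11a1, which pumps divalent metals out of the phagosome and is best known for resistance to intracellular bacteria (chromosome 1, 74375195 to 74386062), had 44.3, 42.6 and 42.6 RPKM in OC, against 36.7, 39.2 and 37.8 RPKM in OCP. Its relative Slc11a2, also called DMT1, which moves iron out of the endosome (chromosome 15, 100387898 to 100425072), had 7.33, 6.91 and 7.06 RPKM in OC, against 7.99, 8.34 and 8.49 RPKM in OCP. Neither gene's groups overlapped, and the differences were small and opposite, with log2 fold changes of 0.18 (SE 0.05) for Slc11a1 and -0.19 (SE 0.05) for Slc11a2. Slc11a2 lost its place past the threshold without OCP replicate 3. It shares 402 exon bases with Gm5475 on the opposite strand, whose reads cannot be told apart from its own without the strand setting. The ratio of Slc11a1 to Slc11a2 was 6.08 ± 0.0662 in OC and 4.59 ± 0.125 in OCP.

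**Figure D2:**
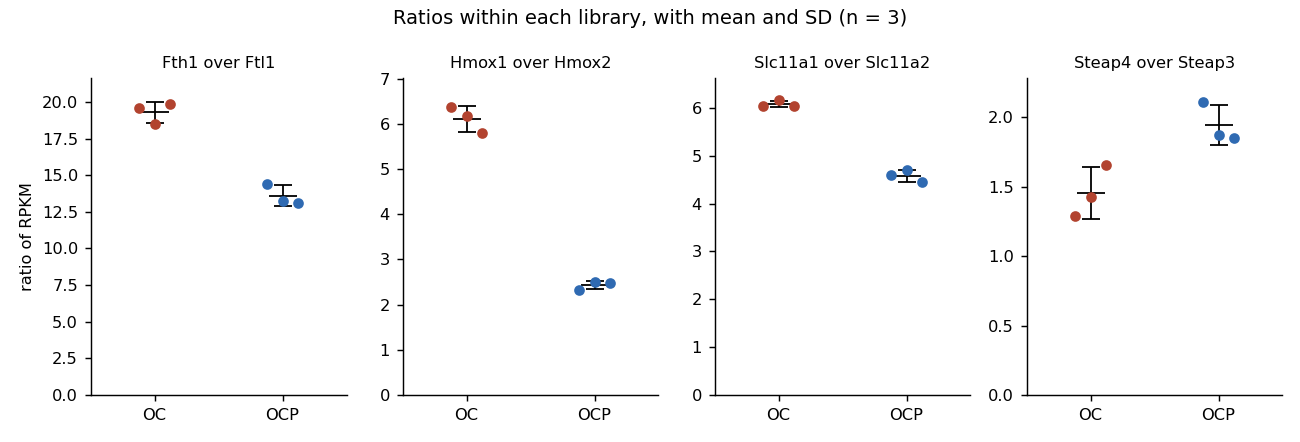
Ratio of the RPKM of paired genes within each library (points), with the mean and SD of 3 OC libraries (left) and 3 OCP libraries (right), on linear axes from 0. Fth1 over Ftl1, Hmox1 over Hmox2 and Slc11a1 over Slc11a2 were higher in all OC libraries, and Steap4 over Steap3 was lower in all of them.

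By sequence feature, the genes with a 5′ hairpin were higher in OC (Fth1, Ftl1) or near the limit of detection (Slc40a1). Those with a 3′ hairpin, Tfrc and Slc11a2, were lower. The match of Slc11a2 was not fully paired, and its difference was small. All these genes were chosen on this same contrast. The genes with no match went both ways, with Hmox1 and Slc11a1 higher and Ncoa4, Steap3 and Steap4 lower. As said above, hairpins at the 5′ end act on translation, which RNA levels do not measure. A part of the hairpins in these differences was not tested.

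The order of levels was much the same in both groups. In OC it ran Fth1, Hmox1, Ftl1, Slc11a1, Tfrc, Ncoa4, Slc11a2, Steap4, Steap3 and Slc40a1, and the ranges of neighbours were apart except for Hmox1 and Ftl1, which overlapped. In OCP Ftl1 stood above Hmox1 and Tfrc above Slc11a1, with no overlap of neighbours. The span from Fth1 to Slc40a1 covers the most abundant transcript of OC and one near the floor.

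**Figure D3:**
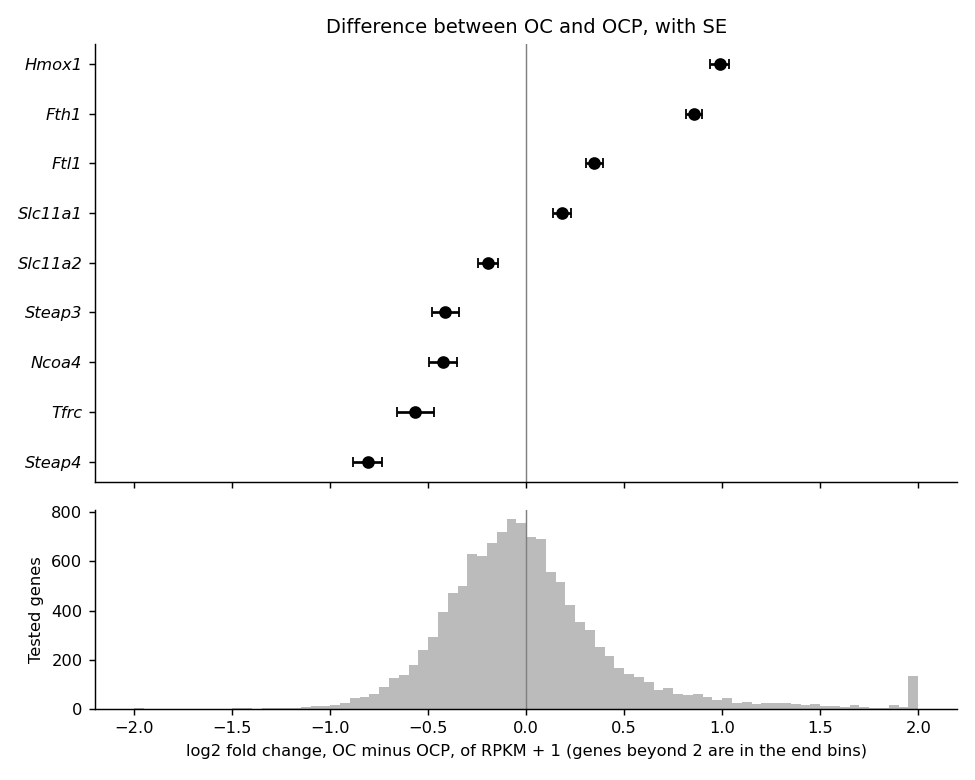
Above, log2 fold change (OC minus OCP, of RPKM + 1) of the 9 tested iron and heme genes with its SE; below, the same quantity for all 12301 tested genes as a histogram. Hmox1 at 0.99 and Steap4 at -0.81 are at the ends of the 9 genes, and the histogram centres near -0.05.

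By the correlation of log2(RPKM + 1) over the 6 libraries, the genes most like Hmox1 among 413 with a difference of like size and sign were Irf7 (r = 0.9998), Lgmn (r = 0.9994) and Emilin2 (r = 0.9994). Those most like Steap4 among 534 were Akap6 (r = 0.9995), Mrpl41 (r = 0.9992) and Mrpl46 (r = 0.9989). The libraries fall into 2 groups, and these values describe mainly that step.

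Beyond the 10 genes, 118 other symbols of iron and heme biology in 7 lists were looked up, of which 104 were in the table and 81 were tested. Of these, 16 rose and 40 fell in OC past the same threshold, and 25 did not pass. Their median log2 fold change was -0.17, against -0.05 over all genes tested. The share that fell was 49.4%, where 32.1% of all tested genes fell. Among the 81 tested genes, 4 reached 1 RPKM in only 1 of the groups (Hamp, Ppox, Bdh2 and Slc46a1), so they were tested only through the group where they are high, and counts over tested genes include them. Slc46a1 was named after its values were seen. By list the median was -0.22 for heme synthesis and -0.26 for mitochondrial iron and iron-sulfur clusters. For export and hepcidin it was 1.05 over 4 tested genes, but 0.47 to 0.49 without any 1 of the OC libraries, 0.43 by voom and 0.06 with no filter. It lay between -0.09 and 0.07 for the remaining lists, and its sign depended on the setting for those of uptake, of chaperones and of heme transport and breakdown.

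Of 10 listed genes around iron export and its hormone, 4 were tested, of which 3 rose and 0 fell, where 23.5% of all tested genes rose. Without any 1 of the OC libraries 2 of 3 rose, since Hamp then failed the filter. Hamp, which encodes hepcidin, the peptide that binds ferroportin and closes it (chromosome 7), had 74, 76 and 70 reads in OC libraries and 0 in all OCP libraries. Its level in OC was 5.07 ± 0.555 RPKM (SD, n = 3), 82.2-fold higher when the whole OCP group is set at a floor of 3 reads. That floor takes each read as independent, and if the reads of a pair were counted apart the fold would be smaller. With no filter on low values its adjusted p was 8.9e-06 by limma. Its close paralog Hamp2 had 1, 2 and 1 reads in OC libraries and 0 in all OCP libraries. Cp, the ferroxidase ceruloplasmin that loads exported iron onto transferrin, rose to 5.56 ± 0.467 RPKM in OC, against 1.14 ± 0.184 RPKM in OCP (log2 fold change 1.62, SE 0.09, adjusted p = 3.2e-06). Furin, a protease that processes prohepcidin, rose to 18.8 ± 0.231 RPKM in OC, against 13.2 ± 0.529 RPKM in OCP (adjusted p = 8.7e-05). The remaining tested gene of the list was Tfpi, at 1.34 RPKM in OC and 1.12 RPKM in OCP (adjusted p = 0.16). Tfpi and Hamp2 are outside the rule for named genes.

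Regulators of iron showed 2 genes risen, 1 fallen and 4 not past the threshold. Fbxl5, the iron-sensing ubiquitin ligase subunit that degrades an iron regulatory protein, rose to 10.98 ± 0.121 RPKM in OC, against 7.05 ± 0.563 RPKM in OCP (log2 fold change 0.58, adjusted p = 1.3e-04). Aco1, which encodes iron regulatory protein 1 in its form without a cluster, fell to 8.73 ± 0.433 RPKM in OC, against 12.2 ± 0.283 RPKM in OCP (log2 fold change -0.44, adjusted p = 2.6e-04). Ireb2, iron regulatory protein 2, had 3.53 ± 0.297 RPKM in OC and 3.46 ± 0.468 RPKM in OCP (adjusted p = 0.83). Mafg, a partner of NRF2 at the Hmox1 gene, rose to 17.2 ± 0.56 RPKM in OC, against 14.6 ± 0.967 RPKM in OCP (adjusted p = 0.013). NRF2 itself, encoded by Nfe2l2, had 25.7 ± 1.19 RPKM in OC and 24.4 ± 0.906 RPKM in OCP (adjusted p = 0.28), and Bach1, the heme-sensing repressor of Hmox1, 6.37 ± 0.482 RPKM in OC and 6.63 ± 0.744 RPKM in OCP (adjusted p = 0.66). Ireb2 and Bach1 are outside the rule for named genes and were chosen after their values were seen.

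Other genes of uptake were mixed, with 3 risen, 2 fallen and 3 not past the threshold of 8 tested. Hfe, which binds the transferrin receptor, rose to 3.75 ± 0.105 RPKM in OC, against 2.08 ± 0.0948 RPKM in OCP (log2 fold change 0.63, adjusted p = 6.7e-05). Slc39a14, a carrier of iron not bound to transferrin, rose to 3.89 ± 0.0653 RPKM in OC, against 2.65 ± 0.184 RPKM in OCP (adjusted p = 6.5e-04). Bdh2, an enzyme of the mammalian siderophore, fell to 0.843 ± 0.0485 RPKM in OC, against 1.73 ± 0.175 RPKM in OCP (adjusted p = 0.0017 with no filter), but without any 1 of the OCP libraries it failed the filter. Snx3, a sorting nexin of receptor recycling and the most abundant of the list, had 92.3 RPKM in OC and 99.4 RPKM in OCP (log2 fold change -0.10, adjusted p = 0.25). Without OCP replicate 1 its log2 fold change was -0.18 (adjusted p = 0.036).

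Among iron chaperones and ferritin relatives, 1 rose, 2 fell and 2 did not pass. Pcbp1, which delivers iron to ferritin, fell to 80.2 ± 0.728 RPKM in OC, against 105 ± 5.79 RPKM in OCP (log2 fold change -0.38, adjusted p = 3.6e-04). Wdr45, an autophagy gene, fell to 1.23 ± 0.213 RPKM in OC, against 1.85 ± 0.286 RPKM in OCP (adjusted p = 0.018), a call lost without a filter (adjusted p = 0.052), without OC replicate 2 (adjusted p = 0.060) and without OCP replicate 2 (adjusted p = 0.053). The single rise was the Ftl1 copy Ftl1-ps1 (adjusted p = 4.0e-04).

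Of 14 tested heme synthesis genes 9 fell, 1 rose and 4 did not pass, where 32.1% of all tested genes fell and 23.5% rose. With trimmed mean scaling 7 of 14 fell, and with no filter 7 of 15. Fech, ferrochelatase, which puts iron into the heme ring, fell to 13.9 ± 1.27 RPKM in OC, against 21.1 ± 0.497 RPKM in OCP (log2 fold change -0.57, adjusted p = 2.2e-04). Urod, a decarboxylase of the pathway, fell to 9.59 ± 0.521 RPKM in OC, against 14.4 ± 0.274 RPKM in OCP (log2 fold change -0.54, adjusted p = 8.3e-05). Alas1, the rate-limiting enzyme outside the erythroid lineage, fell to 39.5 ± 2.58 RPKM in OC, against 45.2 ± 2.5 RPKM in OCP (adjusted p = 0.032). That call was lost with trimmed mean scaling (adjusted p = 0.10), quantile normalization (adjusted p = 0.18), no filter (adjusted p = 0.080) and when any of 4 libraries was left out, namely OC replicates 1 and 3 and OCP replicates 2 and 3 (adjusted p between 0.061 and 0.10). Ppox, protoporphyrinogen oxidase, rose to 1.66 ± 0.0871 RPKM in OC, against 0.878 ± 0.0971 RPKM in OCP (adjusted p = 0.0022 with no filter). Ppox shares 791 exon bases with B4galt3 on the opposite strand, which averaged 2.97 RPKM in OC and 0.961 RPKM in OCP.

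Genes of heme and hemoglobin uptake, transport and breakdown were split, with 4 risen and 4 fallen of 10 tested, and 2 fallen without OC replicate 2 or 3 or OCP replicate 2 or 3. Por, the reductase that passes electrons to heme oxygenase, rose to 129 ± 6.15 RPKM in OC, against 92.5 ± 6.14 RPKM in OCP (log2 fold change 0.48, adjusted p = 3.1e-04). Hp, which encodes the hemoglobin-binding haptoglobin, rose to 31.9 ± 1.94 RPKM in OC, against 24.1 ± 1.34 RPKM in OCP (adjusted p = 0.0011). Pgrmc1, a heme-binding membrane protein, fell to 40.2 ± 2.03 RPKM in OC, against 61.7 ± 4.09 RPKM in OCP (log2 fold change -0.60, adjusted p = 1.1e-04). Hmox2, given above, was the most abundant of the list.

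Mitochondrial iron and iron-sulfur cluster genes fell in 22 of 33 tested cases and rose in 2, against shares of 32.1% fallen and 23.5% risen over all tested genes. With trimmed mean scaling 19 of 33 fell, with no filter 18 of 34, and without OC replicate 2 18 of 33. Nubp2 and Narfl, of the cytosolic assembly machinery, had the largest falls. Nubp2 fell to 14.4 ± 1.1 RPKM in OC, against 27.4 ± 1.77 RPKM in OCP (log2 fold change -0.89, adjusted p = 2.7e-05), and Narfl to 10.9 ± 0.307 RPKM in OC, against 19.1 ± 0.832 RPKM in OCP (log2 fold change -0.76, adjusted p = 1.2e-05). Slc25a37, the mitochondrial iron importer mitoferrin 1, rose to 4.72 ± 0.162 RPKM in OC, against 1.70 ± 0.066 RPKM in OCP (log2 fold change 1.08, adjusted p = 3.7e-06). Its relative Slc25a28, mitoferrin 2, named after its values were seen, fell to 11.4 ± 0.457 RPKM in OC, against 15.9 ± 1.52 RPKM in OCP (adjusted p = 0.0013). Bola2, a partner of cytosolic glutaredoxin, rose to 7.26 ± 0.532 RPKM in OC, against 5.57 ± 0.251 RPKM in OCP (adjusted p = 0.0032). The most abundant of the list, the chaperone Hspa9, had 371 ± 8.44 RPKM in OC and 381 ± 20.8 RPKM in OCP (adjusted p = 0.59). Slc25a37, Narfl, Bola2, Cp, Furin, Fbxl5, Mafg, Hmox2 and Wdr45 each share exon bases with a neighbouring gene, so their values are uncertain to that extent. The same holds for Alas1, Pcbp1, Hamp2, Ftl1-ps1 and Ftl1-ps2.

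**Figure D4:**
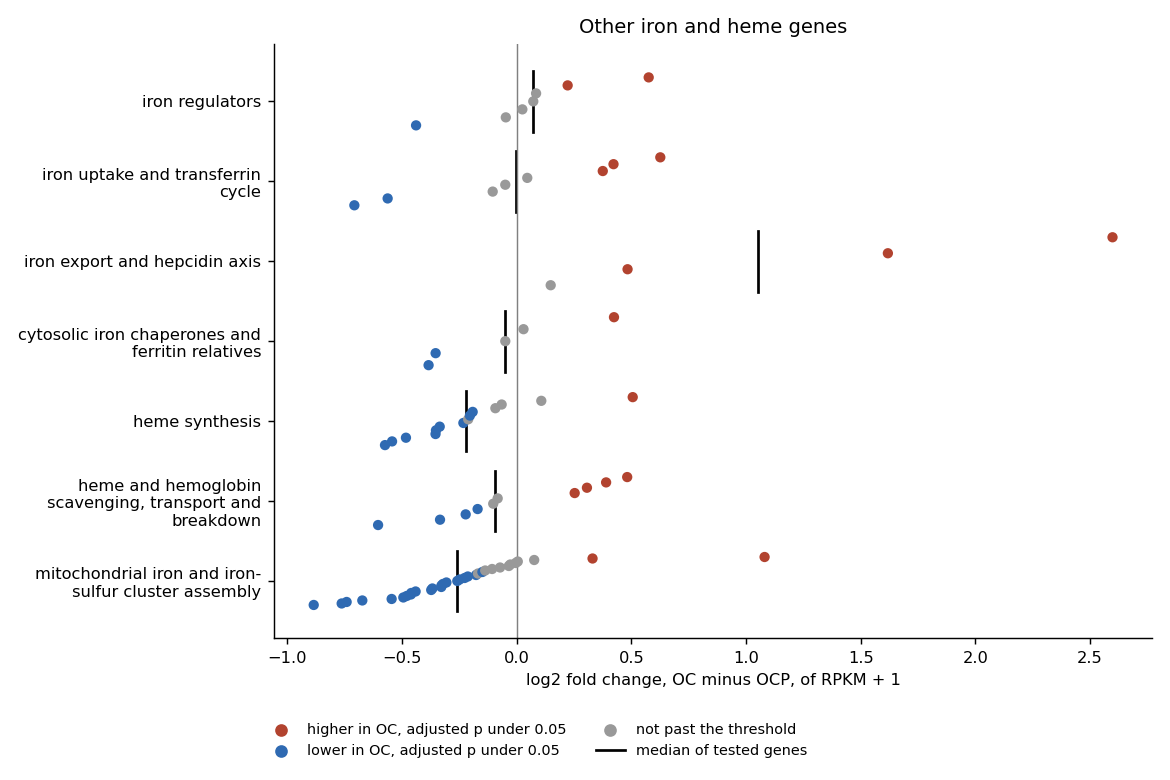
log2 fold change (OC minus OCP, of RPKM + 1) of 81 tested iron and heme genes outside the 10, by list (rows); points are genes, red for higher and blue for lower in OC past the adjusted p threshold of 0.05, grey otherwise, and the bar is the list's median. The point farthest right is Hamp, at 0 in all OCP libraries, whose position depends on the pseudocount; most points of heme synthesis and of mitochondrial iron and iron-sulfur clusters lie left of 0.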

How the data were processed

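The authors deposited 1 table of RPKM values, per the file headers with gene positions and lengths, for 6 libraries. Per the labels, 2 ug of RNA went into a stranded mRNA kit. Per the submitters' processing notes, the tools were Trimmomatic 0.36, STAR 2.5.3a and featureCounts; the build noted is GRCh38, yet the positions are of mouse genes and 22340 symbols share start and end with GENCODE M21 on GRCm38. How strand, multimapping and duplicates were handled is not given in the sources used here. The genes that overlap Ftl1, given above, had high values on both strands, so overlapping genes may carry reads of their neighbours. Floors cover counting error only, with each read taken as independent. Hamp and Slc40a1 had an even number of reads in every library, and whether the reads of a pair were counted apart is not known. RPKM times length gave whole reads (within 0.01) for 100% of values.

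Each gene that reached 1 RPKM in 3 or more libraries was tested with limma 3.58.1 (R 4.3.3, statmod 1.5.0; trend and robust options) on log2(RPKM + 1), two-sided, with Benjamini-Hochberg adjustment over all tested genes and a threshold of 0.05; the steps were tested on simulated data. The members and lists were chosen with earlier results of these data known. All 10 members were named; of each other list, the called genes with the 2 largest rises and the 2 largest falls and the most abundant gene, with all calls allowed in a list of 5 or fewer calls. A gene that this rule names is not reported here. Ferritin copies were named by symbol, except Gm22133 and Gm6977, which the sequence search found. Likeness was ranked among genes of the same sign whose absolute difference was within 25 percent of the member's. Alternatives were a pseudocount of 0.1, no filter, quantile normalization, trimmed mean scaling, voom on recovered reads (mean of at least 10), a replicate block, and each library left out in turn. Ferritin copies were found with blastn 2.17.0. Tables were made in Python 3.11.15 with pandas 2.3.3 and numpy 2.4.6, figures with matplotlib 3.10.9.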

Additional observations from a re-analysis of the deposited data

How the results depend on the processing

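Each of the 9 tested members kept its direction under every alternative, and 4 higher and 5 lower members were counted in each, except that 4 were lower without OCP replicate 3, where Slc11a2 did not pass. Quantile normalization gave Fth1 a log2 fold change of 0.66, against 0.85. Leaving out 1 library at a time gave 2211 to 2936 genes higher in OC and 3259 to 3671 lower, and 14 to 16 other iron and heme genes higher and 31 to 37 lower; without an OC replicate, Hamp and Ppox failed the filter and were not tested, nor was Bdh2 without an OCP replicate. Uptake genes had 1 fall in place of 2 without OCP replicate 2 or 3. Trimmed mean scaling gave 16 higher and 34 lower of these other genes, no filter 20 and 33, and voom 20 and 38. Hspa9, which passed in no setting, changed sign to 0.0070 with trimmed mean scaling and 0.0069 by voom; the cause was not tested. With the replicate number as a block, 16 of these other genes were higher and 35 lower, and genes of heme uptake, transport and breakdown had 2 falls in place of 4. The labels say nothing of shared origin, and deviations of same-numbered libraries correlated at -0.115, 0.143 and 0.0142, so the numbers were not taken as pairs. Depth limits Slc40a1, which had at most 36 reads in a library.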
